A study of Mus musculus with 8 samples.

Results

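The clustered protocadherins are 58 of the 23420 genes in the deposited table, taken as every gene whose symbol is Pcdha, Pcdhac, Pcdhb, Pcdhga, Pcdhgb or Pcdhgc followed by a number. They comprise 14 genes of the alpha cluster, 22 of the beta cluster and 22 of the gamma cluster. At E12.5, the study compared the head mesenchyme of wild type mice (strain C57BL/6) in 2 regions, early migrating mesenchyme (EMM) and supraorbital mesenchyme (SOM), the tissue above the eye. Each group had 4 libraries, and each library was made from tissue of 4 to 5 embryos combined after dispase treatment and removal of brain and surface ectoderm. No transgene or treatment separated the groups, and p-values measure the spread between these pools of tissue.

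Clustered protocadherins are cell surface adhesion proteins of the cadherin superfamily that bind copies of themselves on neighbouring cells. Each alpha or gamma gene has its own promoter and a large variable first exon that encodes the extracellular part, the membrane span and the start of the tail, and this exon is spliced to constant exons that all genes of the cluster share. Beta genes are single exons with no constant part. In neurons, where the family is best known for giving each cell an identity and for self-avoidance of branches, most members are switched on by chance in a fraction of cells, whereas the C-type members at the ends of the alpha and gamma clusters are expressed more evenly. Pcdhgc3 is the member best known for broad expression outside neurons.

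All 58 genes lie on chromosome 18 of GRCm38, the assembly that mm10 names. The alpha cluster runs from 36930285 to 37188897, the beta cluster from 37264998 to 37521419 and the gamma cluster from 37661775 to 37841873. In GENCODE M21, Pcdha1 shares 2860 exonic bases with other alpha genes and Pcdhga1 shares 2119 with other gamma genes, which are the constant exons. The exonic bases that a member shares with no other member, chiefly its variable exon, number 2346 to 2507 in the 12 alpha genes other than the C-type, 2545 to 2961 in gamma A and 2499 to 2607 in gamma B. Pcdhgc5, the lowest gamma member, had 61 reads over the 4 EMM libraries while the gamma cluster together had 23321, so reads of the shared exons were not added in full to every member. How such reads were assigned is not stated in the labels or the file. Paralogs also resemble each other within the variable exons. Runs of 50 bases found in another member made up 10.1% to 23.4% of the variable part in the alpha genes other than the C-type, 2.67% to 17.9% in gamma B and at most 4.25% in gamma A. None of these runs was shared in the 5 C-type genes. GENCODE M21 also places genes of the opposite strand on the unshared bases of Pcdhga1, Pcdhga7, Pcdhga8, Pcdhga10, Pcdhga11, Pcdhga12, Pcdhgb7, Pcdhgc3, Pcdha4, Pcdha6, Pcdha11, Pcdha12 and Pcdhb12. Whether the counting used strand is not stated either, so reads of such a pair cannot be told apart.

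EMM libraries held 12703844 to 22440232 reads assigned to genes, and SOM libraries 16765416 to 33694331. Values are the deposited normalized counts, that is, reads divided by a size factor per library, and limma was fitted on log2(normalized count + 1) over the 14249 genes with at least 10 normalized counts in at least 4 libraries. A difference is the SOM mean minus the EMM mean of these log2 values, which makes the changes of low genes look smaller, and calls use a Benjamini-Hochberg adjusted p below 0.05 over all tested genes. Of all tested genes, 36.1% were called higher in EMM and 36.0% higher in SOM. All 11 mesenchyme markers passed the filter. Of them 6 were called higher in EMM, such as Pdgfra, and 5 higher in SOM, such as Prrx1 and Twist1. Their sum, carried mostly by Col1a1, Col1a2 and Col3a1, was between 891407 and 1028360 normalized counts in EMM and between 376104 and 433662 in SOM. Libraries of a group differed by more than sampling noise (chi-square per degree of freedom of at least 3.72 in every pair), so each counted as 1 sample. An earlier analysis of these data set EMM replicates 2 and 3 and SOM replicate 4 apart by ectoderm, muscle or stress genes. The ectoderm gene Krt5 was at 3.07, 192, 55.4 and 8.08 in EMM and 55.4, 46.2, 43.4 and 140 in SOM, so results were also computed with those 3 libraries left out.

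The gamma A and gamma B genes were higher in EMM throughout. All 12 gamma A and all 7 gamma B genes passed the filter on low values and were called higher in EMM, where 36.1% of all tested genes were, and none was higher in SOM. Their median difference was -0.71, beside 0.01 for all tested genes, and their fold changes ran from 1.30 to 2.45, with at least 2-fold differences in 6 of them. The libraries of the regions did not overlap in 18 of the 19, where 33.2% of all tested genes did not overlap in that direction. Pcdhga1 was the exception. Over both directions, 66.1% of all tested genes did not overlap. In bulk tissue, fewer cells that express a gene and less RNA per cell cannot be told apart.

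**Figure D1:**
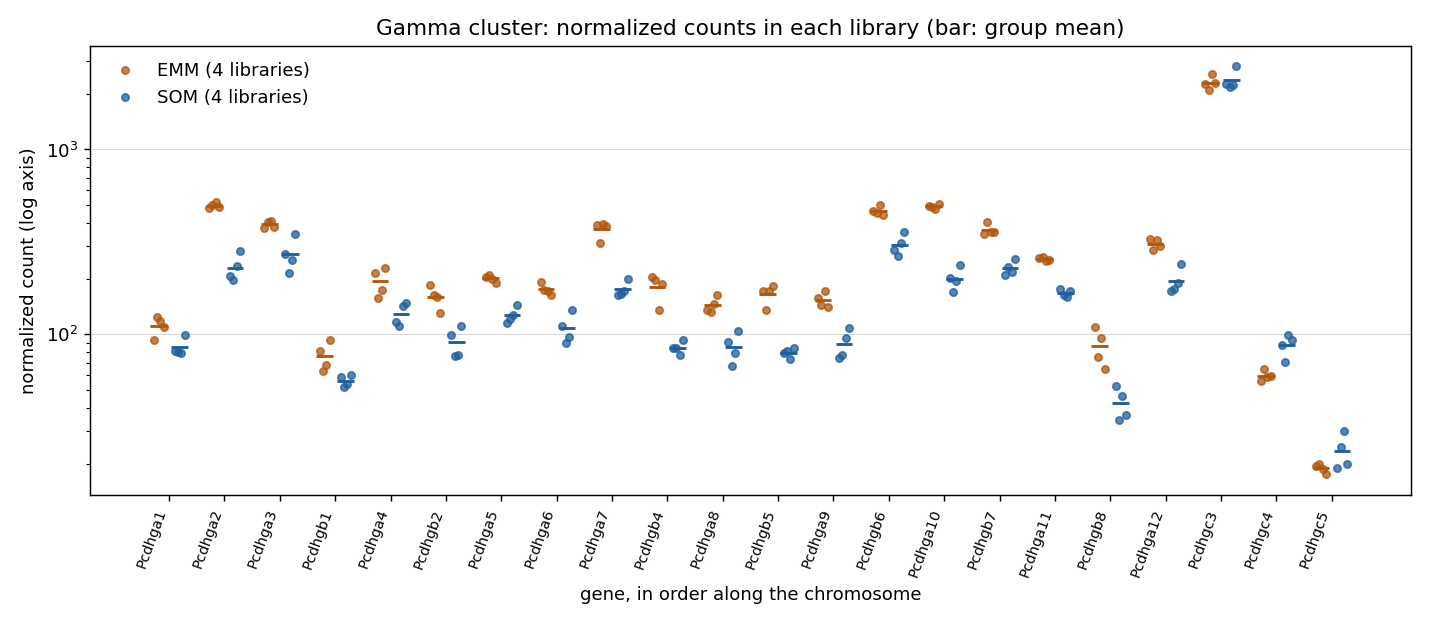
Normalized counts (log axis) of the 22 gamma cluster genes in the 4 EMM and 4 SOM libraries, in order along the chromosome, with points for libraries and bars for group means. The EMM points lie above the SOM points in 18 of the 19 gamma A and gamma B genes, while Pcdhgc3, at the top of the axis, has overlapping points and Pcdhgc4 is higher in SOM.

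Among gamma A genes, Pcdhga10 had the largest difference. Its normalized counts were 497, 486, 476 and 509 in EMM replicates 1 to 4 and 201, 170, 194 and 236 in SOM replicates 1 to 4. Every EMM pool lay far above the highest SOM pool, and the mean was 492 ± 14.3 (SD, n = 4) against 200.5 ± 27.5, a 2.45-fold difference with a log2 difference of -1.30 (limma, 95% confidence interval -1.50 to -1.10, adjusted p = 4.11e-09). Pcdhga2 stood at 482, 501, 520 and 486 in EMM and at 207, 198, 234 and 281 in SOM. Again no SOM pool reached the EMM range, and the log2 difference was -1.12 (interval -1.33 to -0.91, limma adjusted p = 4.32e-08).

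Pcdhga7 was the third gamma A gene to pass 2-fold, at 392, 313, 393 and 386 in EMM and 164, 166, 172 and 199 in SOM. EMM replicate 2 was its low EMM library and was still well above each SOM library. Pcdhga3, the third most abundant gamma A gene, differed less, at 376, 403, 413 and 380 in EMM and 271, 214, 253 and 347 in SOM. Its highest SOM library came close to its lowest EMM library, and the log2 difference was -0.55 (interval -0.81 to -0.30, limma adjusted p = 0.000635). Pcdhga1, the first gene of the cluster, had the smallest difference of the 19. Its values were 93.0, 125, 118 and 109 in EMM and 81.8, 80.5, 79.8 and 99.5 in SOM, so that SOM replicate 4 lay above EMM replicate 1. The log2 difference was -0.37 (limma adjusted p = 0.0204), and the call was lost without EMM replicate 2 (adjusted p = 0.0618), without SOM replicate 2 (0.0508) or 3 (0.0521), and with the 3 libraries set apart above left out (0.101). The other 7 gamma A genes, Pcdhga4, Pcdhga5, Pcdhga6, Pcdhga8, Pcdhga9, Pcdhga11 and Pcdhga12, had log2 differences of -0.57, -0.66, -0.71, -0.76, -0.79, -0.61 and -0.68. Pcdhga11 was the steadiest across pools, at 255 ± 5.57 in EMM and 167 ± 7.80 in SOM.

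Gamma B genes, which lie among the gamma A genes along the cluster, moved in the same direction. Pcdhgb6, the most abundant, stood at 464, 455, 500 and 444 in EMM and 285, 267, 310 and 357 in SOM. The ranges were separate, and the log2 difference was -0.62 (interval -0.81 to -0.43, limma adjusted p = 1.17e-05). Pcdhgb7 followed at 347, 405, 360 and 358 in EMM and 209, 232, 217 and 254 in SOM, a 1.61-fold difference.

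The gamma B genes that passed 2-fold were Pcdhgb4, Pcdhgb5 and Pcdhgb8. Pcdhgb4 stood at 203, 197, 136 and 187 in EMM and 84.4, 84.0, 77.2 and 92.8 in SOM. EMM replicate 3 was low for this gene and still exceeded all SOM pools, and the log2 difference was -1.07 (interval -1.36 to -0.78, limma adjusted p = 2.76e-06). Pcdhgb5 was at 171, 136, 171 and 183 in EMM and 79.3, 81.2, 73.4 and 84.8 in SOM, with a log2 difference of -1.04 (limma adjusted p = 1.51e-06). Pcdhgb8, annotated in GENCODE M21 as a polymorphic pseudogene, was at 86.3 ± 19.9 against 42.6 ± 8.67, with a log2 difference of -0.99 (limma adjusted p = 0.000225). Pcdhgb2 had a difference of -0.81. Pcdhgb1 was at 76.5 ± 13.5 against 56.3 ± 3.98, a difference of -0.42 (limma adjusted p = 0.0241). Its call was lost without EMM replicate 1 (adjusted p = 0.0635) or 4 (0.0900) and without SOM replicate 2 (0.0622) or 3 (0.0523). The other 17 gamma A and gamma B genes kept their call in each of the 16 alternative fits, with adjusted p of at most 0.00825 there.

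Other cell type markers moved with the regions, and their part in the gamma difference was not tested. Their counts stand beside 36.1% of all tested genes called higher in EMM and 36.0% in SOM. All 11 macrophage markers were higher in EMM, with sums of 11704 to 14643 in EMM and 2896 to 3271 in SOM, as were 9 of 10 pericyte and smooth muscle markers, with sums of 65895 to 73885 and 14504 to 17165. Of 9 tested meninges markers, 7 were higher in EMM and none in SOM, with sums of 30479 to 32792 and 9688 to 11119. Endothelial markers summed to 16693 to 22280 and 12784 to 15239, with 6 of 9 higher in EMM and 1 in SOM. Surface ectoderm markers summed to 4212 to 4622 and 1617 to 2108, with 3 of 10 tested higher in EMM, Cdh3, Krt8 and Cdh1, and none in SOM. The sum was mostly Cdh3, and the median difference of the 10 was 0.50, toward SOM, where Krt5, Krt14, Krt15, Trp63 and Grhl3 had differences of 0.99 to 2.18 that did not pass. Esrp1 of the ectoderm list and Ptgds of the meninges list were under the filter, and no listed marker of these 5 types was at 0 in all libraries.

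The C-type genes did not follow the gamma A and gamma B genes. Pcdhgc3, whose tail has been reported to bind the WNT pathway protein Axin1, was by far the most abundant member, at 2267, 2086, 2556 and 2282 normalized counts in EMM and 2272, 2168, 2237 and 2815 in SOM. The pools of the regions overlapped, with SOM replicate 4 the highest of all, and the log2 difference was 0.04 (limma adjusted p = 0.659). The 95% confidence interval, from -0.14 to 0.22, equals SOM over EMM ratios of 0.909 to 1.17 and so lies apart from the interval of every gamma A and gamma B gene except Pcdhga1 and Pcdhgb1, whose intervals reach -0.09.

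Pcdhgc4, known to be needed for the survival of some neurons, was higher in SOM. It stood at 56.2, 65.1, 58.5 and 59.2 in EMM and at 88.1, 71.4, 98.9 and 93.5 in SOM, without overlap, where 32.9% of all tested genes did not overlap in that direction. The log2 difference was 0.54 (interval 0.23 to 0.85, limma adjusted p = 0.00321). Pcdhgc5 was near 20 counts in both regions, at 19.4, 19.9, 18.8 and 17.5 in EMM and 18.9, 24.5, 30.0 and 20.0 in SOM, and the difference of 0.27 did not pass (limma adjusted p = 0.294).

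The alpha C-type gene Pcdhac2, known from the spacing of serotonergic axons, was the only alpha member to pass the filter on low values. Its values were 14.3, 18.1, 11.5 and 16.2 in EMM and 15.1, 35.0, 26.8 and 34.7 in SOM, where replicate 1 lay inside the EMM range. The log2 difference was 0.80 (interval 0.21 to 1.39, limma adjusted p = 0.0174). The call was lost without SOM replicate 2 (adjusted p = 0.0649) or 4 (0.0615) and with the 3 libraries set apart left out (0.113). Pcdhac1 had 3 reads in EMM and 2 in SOM, so that no difference was detectable at this depth.

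Neuron and glia markers were called in both directions, and their part in the differences of the C-type genes was not tested. Neuron markers summed to 2118 to 2635 normalized counts in EMM and 4902 to 5313 in SOM. Of 11 tested, 6 were higher in SOM, Gap43 among them, and 3 higher in EMM, Syt1 among them. Over all tested genes the shares were 36.0% in SOM and 36.1% in EMM. Dcx, Isl1 and Prph were under the filter. Neural crest glia and melanoblast markers summed to 1721 to 2106 in EMM and 1732 to 2041 in SOM, which overlap. In EMM the sum was mostly Kit and Ednrb, at means of 729 and 751, against 299 and 214 in SOM. Sox10 was at a mean of 4.35 in EMM and 513 in SOM, so the sums do not show how single markers differed. Of the 13, 9 were higher in SOM, among them Sox10, and 4 higher in EMM, among them Kit and Ednrb, beside the same shares. Foxd3 of this list was at 0 in all EMM libraries. Brain progenitor markers summed to 168 to 548 and 793 to 1048, and 7 of the 11, Pax6 and Sox1 among them, were under the filter.

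**Figure D2:**
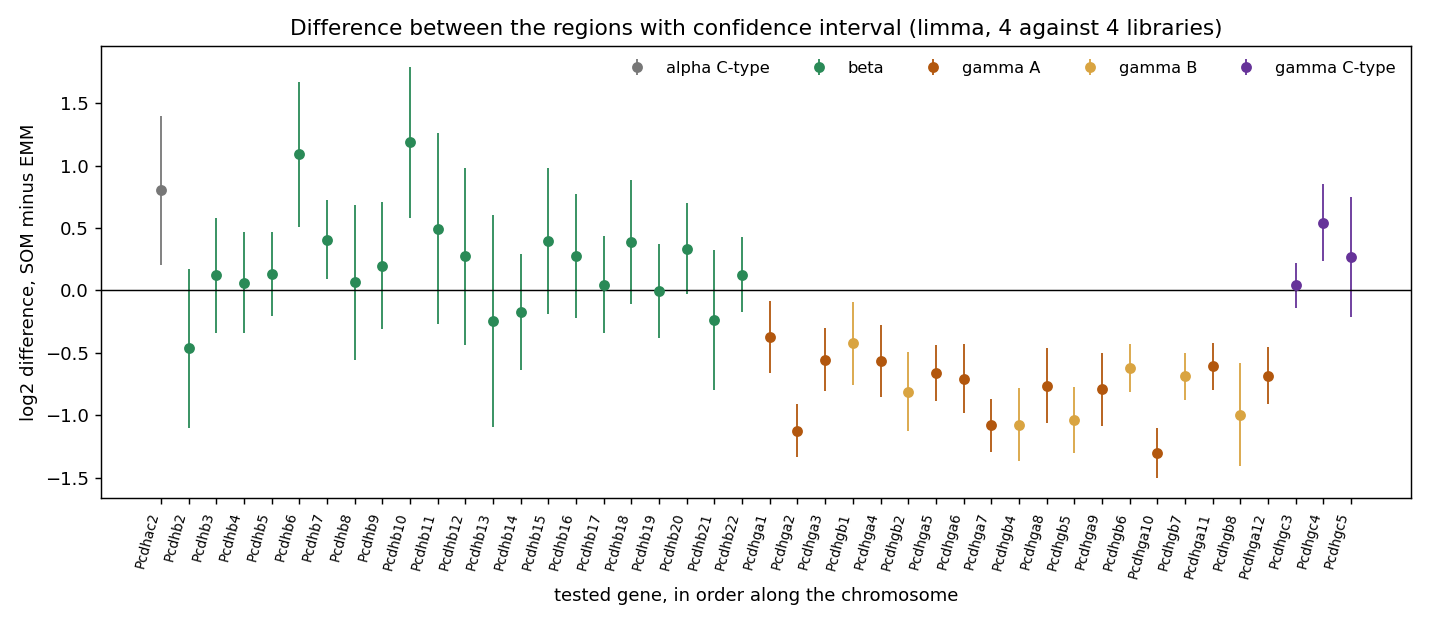
Difference between the regions (log2, SOM minus EMM) with its 95% confidence interval for the 44 tested members, in order along the chromosome and coloured by subfamily. The 19 gamma A and gamma B genes lie below 0 and the 3 gamma C-type genes and Pcdhac2 above it, while 18 of the 21 beta genes have intervals that cross 0.

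The beta genes mostly did not pass the test. Of 22 genes, 21 passed the filter on low values and Pcdhb1 was listed at 0 in all 8 libraries. Called higher in SOM were 3, Pcdhb6, Pcdhb7 and Pcdhb10, none was called higher in EMM, and 18 did not pass. Over all tested genes 72.1% were called in either direction, and of the 1911 tested genes with a mean of 10 to 50 normalized counts, the range of most beta genes, 56.9% were. At an unadjusted p below 0.05 the count of beta genes was also 3, and edgeR and DESeq2 each called 3 in SOM and 0 in EMM. The median difference of the 21 genes was 0.13.

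Pcdhb10 had 10.2, 5.42, 13.6 and 12.1 normalized counts in EMM and 23.9, 27.3, 21.7 and 22.0 in SOM. All SOM pools were above all EMM pools, and the log2 difference was 1.19 (interval 0.58 to 1.79, limma adjusted p = 0.00148) from 35 reads in EMM and 125 in SOM. Pcdhb6 was also without overlap, at 15.3, 14.5, 22.0 and 9.42 against 27.7, 29.4, 28.1 and 48.1, with a log2 difference of 1.09 (interval 0.51 to 1.67, limma adjusted p = 0.00196). Pcdhb7, the most abundant beta gene, stood at 102, 103, 83.6 and 68.7 in EMM and 130, 98.7, 119 and 124 in SOM. Its pools overlapped, and the difference of 0.41 (interval 0.09 to 0.72, limma adjusted p = 0.0227) was not called without EMM replicate 4 (adjusted p = 0.0882), SOM replicate 1 (0.0659) or SOM replicate 4 (0.0522), or with the 3 libraries set apart left out (0.0519).

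Next in abundance were Pcdhb22 and Pcdhb17. Pcdhb22 was at 91.0, 92.2, 93.0 and 76.7 in EMM and 93.2, 83.3, 90.6 and 121 in SOM, with overlapping pools and a log2 difference of 0.13 (interval -0.18 to 0.43, limma adjusted p = 0.438). Pcdhb17 was at 95.0, 72.3, 55.4 and 80.8 against 73.0, 76.3, 62.5 and 101, a difference of 0.05 (interval -0.34 to 0.43, limma adjusted p = 0.824). In both genes the pools of the regions overlapped. The 18 genes that did not pass had differences from -0.46 in Pcdhb2 to 0.49 in Pcdhb11, 13 of them toward SOM and 5 toward EMM, and adjusted p from 0.0893 in Pcdhb20 to 0.984 in Pcdhb19. Pcdhb11 was called higher in SOM without EMM replicate 1 (limma adjusted p = 0.0269), Pcdhb15 without EMM replicate 4 (0.0460) and Pcdhb20 without EMM replicate 2 (0.0435). Low counts limit these values, as the median half-width of the interval was 0.50 in beta genes and 0.26 in gamma A and gamma B genes. Even so, the interval of 18 of the 21 tested beta genes lay wholly above -0.71, the median of the gamma A and gamma B genes.

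**Figure D3:**
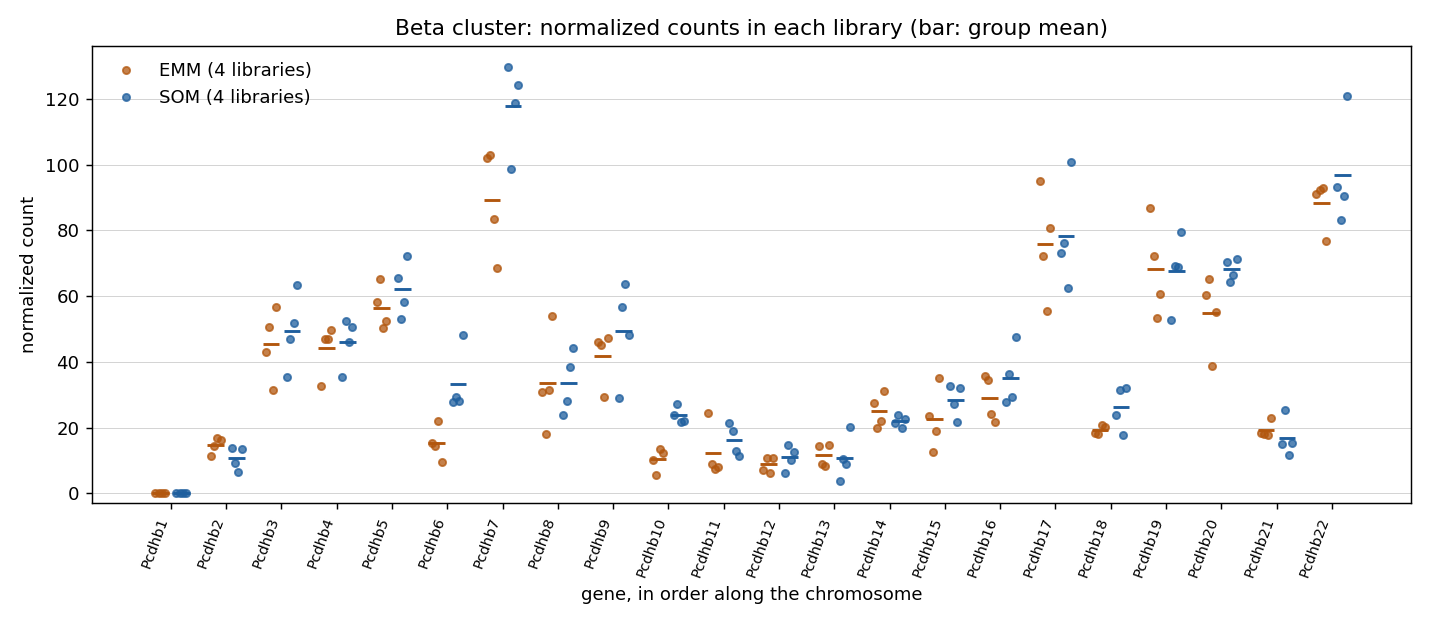
Normalized counts of the 22 beta genes in the 4 EMM and 4 SOM libraries, in order along the chromosome, with points for libraries and bars for group means. Points of the regions overlap in every gene but Pcdhb6 and Pcdhb10, which are higher in SOM, and Pcdhb1 lies at 0.

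Alpha genes other than the C-type were close to the limit of detection. The 12 genes together had 138 reads in EMM and 125 in SOM, and none passed the filter. Pcdha4 and Pcdha8 were listed at 0 in all 8 libraries, as was the row Pcdha4-g, which the rule leaves out. In GENCODE M21 the annotated genes Gm42416, on the same strand, and Gm38225, on the other, also cover unshared bases of Pcdha4. Pcdha5, the most abundant, was at 8.18, 10.8, 7.32 and 6.73 in EMM and 6.30, 7.70, 7.66 and 12.7 in SOM. Its pools overlapped fully. Pcdha10 was at 12.3, 7.23, 7.32 and 13.5 in EMM and 1.26, 1.40, 4.47 and 4.67 in SOM, from 33 and 17 reads, and its pools did not overlap. Pcdha12 likewise did not overlap, from 18 reads in EMM and 5 in SOM, while Pcdha9, with 20 and 17 reads, did. Among the tested genes, which include neither Pcdha10 nor Pcdha12, 33.2% did not overlap in that direction. With no filter on low values, limma called Pcdha10 (adjusted p = 0.00319) and Pcdha12 (adjusted p = 0.00101) higher in EMM. The share of all genes called without the filter is not given here, so these 2 calls stand without a background. The other 6 genes, Pcdha1, Pcdha2, Pcdha3, Pcdha6, Pcdha7 and Pcdha11, had between 1 and 15 reads per region. In 8 of the 12 genes the EMM mean was the higher and in 2 the SOM mean.

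Summed over members, the subfamilies differed in how they changed between the regions. Gamma A and gamma B genes together had 4892, 4687, 4845 and 4769 normalized counts in EMM replicates 1 to 4 and 2648, 2459, 2680 and 3213 in SOM, a 1.74-fold difference of the means. The EMM pools varied little, at 4798 ± 90.2, and SOM replicate 4 was the high SOM library. Gamma C-type genes summed to 2376 ± 191 in EMM and 2484 ± 301 in SOM, a gap smaller than either spread. Beta genes summed to 852, 797, 691 and 804 in EMM and 826, 883, 853 and 1052 in SOM, which overlap. Alpha genes without the C-type summed to 44.0, 50.6, 38.7 and 40.4 in EMM and 17.6, 19.6, 23.6 and 30.7 in SOM, which do not.

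**Figure D4:**
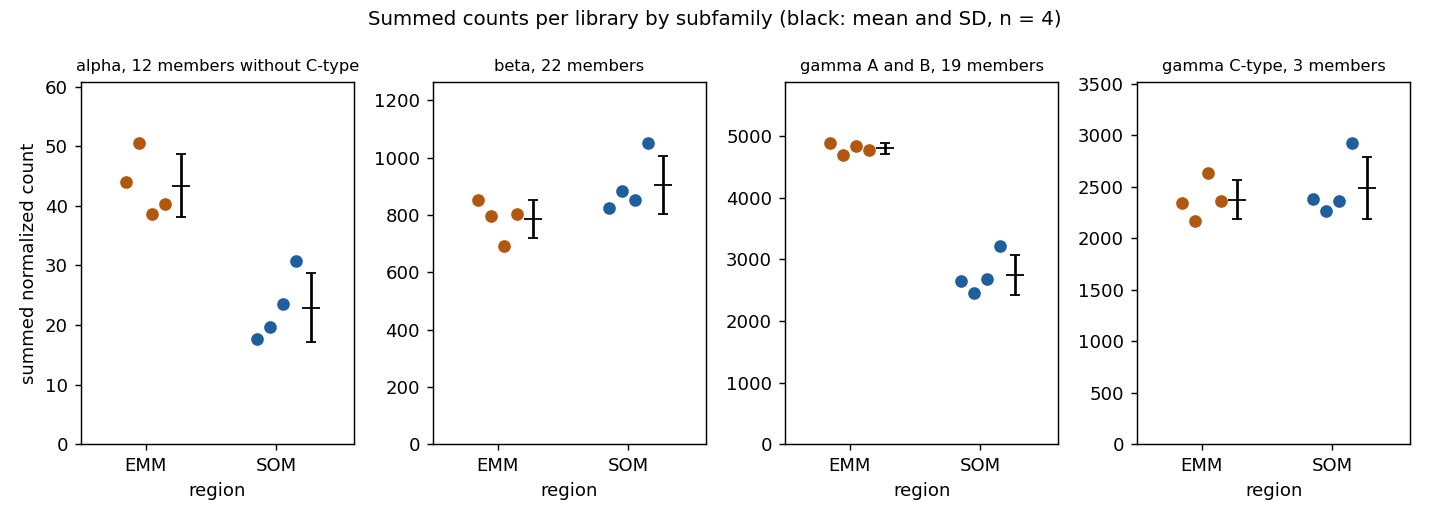
Summed normalized counts per library for the alpha genes without the C-type, the beta genes, the gamma A and B genes and the gamma C-type genes, each panel with its own axis from 0, with points for the 4 libraries of a region and mean and SD in black. The regions are separate for gamma A and B and for the 12 alpha genes, at means of 43.4 and 22.9 for the latter, and overlap for beta and gamma C-type genes.

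The makeup of the family changed accordingly. Gamma genes took 89.4% ± 1.03 of the summed member counts in EMM and 84.6% ± 0.826 in SOM, beta genes 9.81% ± 0.953 and 14.6% ± 0.683, and alpha genes 0.742% ± 0.110 and 0.822% ± 0.183 (SD, n = 4). The beta share lay between 8.41% and 10.5% in EMM pools and between 14.0% and 15.6% in SOM pools. Within the gamma cluster, Pcdhgc3 held 31.3%, 30.4%, 34.2% and 32.0% in EMM and 45.2%, 45.9%, 44.3% and 45.8% in SOM. SOM replicate 4, high for nearly all gamma genes, was not set apart in this share. The ratio of gamma A to gamma B sums was 2.20 ± 0.0732 in EMM and 2.10 ± 0.106 in SOM, with overlapping pools.

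Per kilobase of exon not shared with other members, Pcdhgc3 was at 895 ± 75.5 normalized counts in EMM and 924 ± 116 in SOM. In EMM it was followed by Pcdhga2 at 193 ± 6.56, Pcdhga10 at 188 ± 5.45 and Pcdhgb6 at 182 ± 9.34, where each gap between neighbours was smaller than the larger of their SDs. In SOM the order below Pcdhgc3 was Pcdhgb6 at 119 ± 15.2, Pcdhga3 at 104 ± 21.5 and Pcdhga2 at 89.4 ± 14.6, and the gaps were again smaller than the larger SD. Beta genes, set per kilobase of RefSeq gene length, reached at most 30.2 per kilobase over all libraries, in Pcdhb22, and 29.5 in Pcdhb7. GENCODE M21 gives Pcdhb22 6609 exonic bases where 3067 were used, so its first place depends on the length taken. For Pcdhb7 the lengths were 3501 and 3506. Alpha genes reached at most 7.09, in Pcdhac2. These levels assume that constant exon reads were not counted.

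SOM replicate 4 was the highest SOM library in 17 of the 19 gamma A and gamma B genes and in 11 of the 21 tested beta genes. Without it all 19 gamma A and gamma B genes were still called higher in EMM, the SOM over EMM ratio of the gamma sum was 0.687 in place of 0.730, and that of the beta sum was 1.09 in place of 1.15. No EMM library was the highest in more than 5 of these 19 genes. Over the gamma A and gamma B genes and over the beta genes, place along the chromosome went with neither level nor difference to any marked degree. Spearman's rho between order and the log2 difference was -0.27 over the 19 gamma A and gamma B genes and -0.05 over the 21 beta genes. For order and level per kilobase it was 0.12 and 0.1. In gamma A alone, rho with the difference was -0.36, and in gamma B alone, rho with the level was 0.32. The C-type genes were left out, and these values only describe genes that share libraries.

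Genes beside and between the clusters were called in both directions. The test called 8 of 16 neighbours higher in SOM and 4 higher in EMM, where 36.1% of all tested genes were higher in EMM and 36.0% in SOM. The count called is thus near the share over all genes, and their median difference was 0.27. Taf7, a general transcription factor gene between the beta and gamma clusters, was at 674 in EMM and 731 in SOM on average (difference 0.12, limma adjusted p = 0.146). Diaph1, a formin gene just beyond the gamma cluster, was higher in EMM (-0.27, limma adjusted p = 0.00081). Arap3 (-0.20) and Rell2 (-0.89, from a mean of 14.4) were also higher in EMM, and Ik, Hdac3 and Hars2 were higher in SOM by 0.42, 0.39 and 0.37. With the 3 libraries set apart left out, 1 neighbour was higher in EMM.

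The listed regulators were called about as often as all tested genes. CTCF and cohesin are known to loop the clusters' enhancers to chosen promoters, and DNA and histone methylation to silence the rest. The test called 14 of 30 regulator genes higher in SOM and 6 higher in EMM, beside 36.0% and 36.1% of all tested genes, and their median difference was 0.08. The histone methyltransferase gene Ehmt2, its partner gene Wiz and the corepressor gene Trim28 were higher in SOM by 0.76, 0.71 and 0.53, and the maintenance methyltransferase gene Dnmt1 by 0.59. Ctcf was at 2640 in EMM and 2998 in SOM (0.18, limma adjusted p = 0.00426). The cohesin factor genes Pds5b and Wapl and the demethylation gene Tet1 were higher in EMM, at -0.32, -0.40 and -0.34. Smchd1, a known repressor of the clusters, differed by 0.04 (limma adjusted p = 0.576), and the cohesin gene Rad21 by 0.04 (limma adjusted p = 0.522).

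Among genes for cytoplasmic partners and processing enzymes of the proteins, the test called 18 of 27 higher in EMM and 6 higher in SOM, beside 36.1% and 36.0% of all tested genes. Their median difference was -0.31. Adam10, the metalloprotease that sheds the extracellular part of gamma protocadherins, was at 4664 ± 234 in EMM and 2399 ± 226 in SOM, a difference of -0.96. The small GTPase gene Rhoa had a difference of -0.59 and Nckap1, of the actin-regulating WAVE complex, one of -0.79. Nlgn2, Wasf1 and the gamma-secretase gene Psenen were higher in SOM by 0.43, 0.39 and 0.35. The focal adhesion kinase gene Ptk2, a known binding partner, had a small difference of -0.12 (limma adjusted p = 0.0377).

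**Figure D5:**
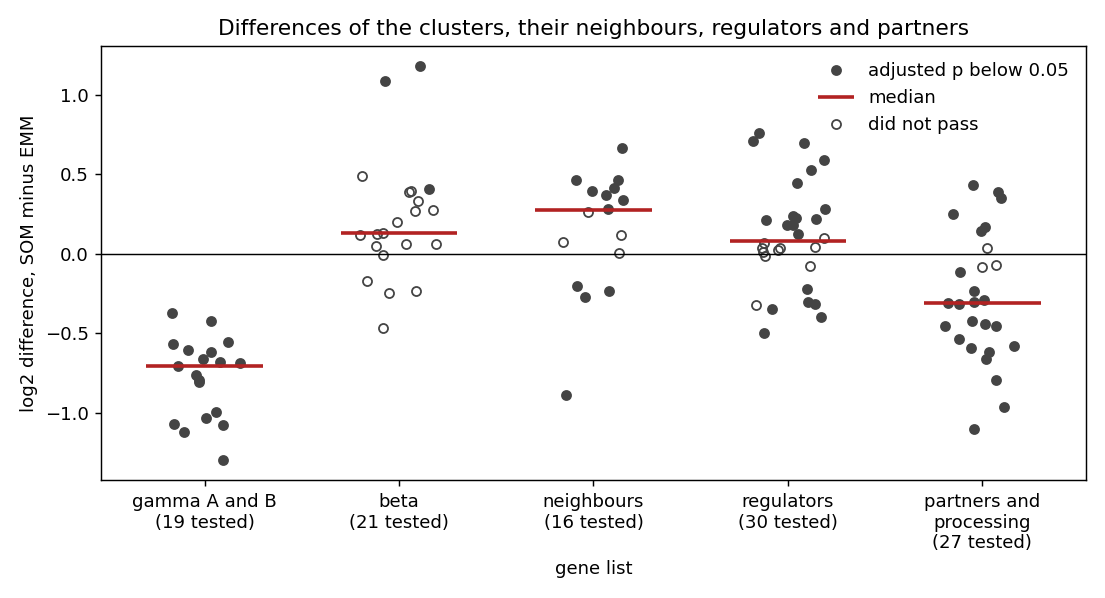
Difference between the regions (log2, SOM minus EMM) of the 19 gamma A and B genes, the 21 tested beta genes, 16 neighbouring genes, 30 regulators and 27 partner and processing genes, with filled points for genes that passed and red lines for medians. The gamma A and B median of -0.71 lies below that of the partner list at -0.31, and the other medians are above 0.

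The authors' deposited table gives EMM over SOM from DESeq2 on the same 8 libraries, so it is no separate support. In it 18 of the 19 gamma A and gamma B genes had an adjusted p below 0.05, all 18 higher in EMM. The share of all genes called in it is not given here, so this count stands without a background. Pcdhga1 missed that threshold in the authors' deposited table, at an adjusted p of 0.0505. The same table held Pcdha10 and Pcdha12 higher in EMM, and Pcdhac2, Pcdhb6, Pcdhb7, Pcdhb10 and Pcdhgc4 higher in SOM.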

How the data were processed

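Total RNA of 8 pools of mouse cranial mesenchyme, 4 EMM and 4 SOM, was sequenced from Illumina TruSeq libraries, per the labels' protocols. The submitters' processing notes name bcl2fastq, STAR, DESeq2 and mm10. The labels and the file do not name the read counter, its annotation or its use of strand. The authors deposited 1 table: a signal per library (normalized count), its mean, the authors' log2 fold change with standard error, the authors' Wald score, and the deposited p-value and adjusted p-value. All values were whole multiples of the smallest value of their column within 1 ppm (100%), so reads were recovered by division. Library sizes ran from 12703844 to 33694331 reads.

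limma 3.58.1 (R 4.3.3, trend and robust moderation) was fitted over all 14249 genes with at least 10 normalized counts in at least 4 libraries, with pseudocount 1 and no covariate. It was tested on simulated data. Alternatives were pseudocount 5, a filter at 50 or none, upper quartile scaling, edgeR 4.0.16 and DESeq2 1.42.0 on recovered reads, a replicate block, and leaving out libraries. Members and lists were chosen with earlier results of these data known. Named genes were all C-type genes, the 3 most abundant and the 2 lowest adjusted p per direction of each other subfamily, and up to 3 per direction of the regulator, partner and neighbour lists. Other genes were named after their values were seen. For marker lists, counts and sums stand in place of single genes. Coordinates came from RefSeq (GRCm38.p6) for all 58 members and exons from GENCODE M21. Lengths of beta genes came from RefSeq. Of the listed genes, Zfp274 and Harsb had no match.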

Additional observations from a re-analysis of the deposited data

Results flagged for a closer look

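Of 96 groups of 4 libraries checked, for 44 members and 4 sums, 9 had 1 library far from the other 3, and chance gives about 1 in 20 groups. In SOM replicate 4, Pcdhgc3 stood at 2815 where the other SOM libraries had 2168 to 2272, Pcdhga1 at 99.5 where they had 79.8 to 81.8, and Pcdhb6 at 48.1 where they had 27.7 to 29.4. In EMM replicate 1, Pcdhb4 was low at 32.7 against 47.0 to 49.8 in the others, and Pcdhb11 was high at 24.5 against 7.32 to 9.04. In EMM replicate 4, Pcdhb21 was high at 22.9 against 17.8 to 18.4, and Pcdhb22 was low at 76.7 against 91.0 to 93.0. Pcdhb9 was low in EMM replicate 3, at 29.3 against 45.2 to 47.1, and Pcdhga7 was low in EMM replicate 2, at 313 against 386 to 393.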

How the results depend on the processing

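All 19 gamma A and gamma B calls were made under each scaling, filter and tool tried, 18 with the 3 libraries set apart left out, and 17 to 19 with 1 library left out. Over 681 refits of single tested members, 640 kept direction and side of the threshold, 15 lost a call and 3 gained one. Low read numbers limit the alpha and beta values. With no filter, 2 alpha genes were called higher in EMM, and the share of all genes called in that fit is not given here. The alpha count in SOM, 1 in the full data, was 0 with a filter at 50 and 0 to 1 with libraries left out. The beta count in SOM, 3 in the full data, was 1 with a filter at 50 and 2 to 4 with libraries left out. Over the filtered members alone, the alpha sum ratio of SOM to EMM was 1.86 in place of 0.861, and the alpha share was 0.189% in EMM and 0.453% in SOM.

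With libraries left out, singly or the 3 together, counts were 1 to 4 for neighbours higher in EMM, 3 to 9 for glia markers higher in SOM, 0 to 2 for brain progenitor markers higher in EMM, 0 to 1 for pericyte markers higher in SOM and 0 to 3 for ectoderm markers higher in SOM. Brain progenitor markers higher in EMM numbered 0 with a filter at 50 and 7 with none. Ectoderm markers higher in SOM numbered 1 with pseudocount 5, no filter, upper quartile scaling, edgeR or the replicate block.

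The sign turned in 23 refits, all of members that did not pass. With libraries left out, the log2 difference ran from -0.16 to 0.27 in Pcdhb3, -0.071 to 0.18 in Pcdhb4, -0.45 to 0.32 in Pcdhb8, -0.38 to 0.13 in Pcdhb13, -0.092 to 0.63 in Pcdhb15, -0.31 to 0.16 in Pcdhb17, -0.20 to 0.12 in Pcdhb19 and -0.043 to 0.095 in Pcdhgc3. Pcdhb19 was at 0.026 with upper quartile scaling, 0.017 with edgeR and 0.00018 with DESeq2. The cause of these changes was not tested.

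Same-numbered EMM and SOM libraries had correlations of 0.126, 0.00993, 0.0419 and -0.0199 of their deviations from the group means. Pairs with unlike numbers ran from -0.145 to 0.103. The labels give no pairing, and such weak correlations can neither show nor exclude it. With the replicate block, 19 gamma A and gamma B genes were called higher in EMM, 3 beta genes in SOM and 12 of the regulators in SOM, and no member's call changed.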
